A study of Homo sapiens with 18 samples.

Results

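Most internal exons of human genes are short, and an internal exon of more than 300 nucleotides is a rare case for the splicing machinery. The spliceosome assembles from small nuclear ribonucleoproteins, whose shared ring of Sm proteins includes SmD3, the product of SNRPD3. Splice sites are usually recognised in pairs across the exon, so a long exon places its 3′ and 5′ splice sites far apart. Many long exons encode repeats or a large domain, as in the proliferation marker Ki-67, the microtubule-associated protein MAP4 and the reticulon RTN4, and leaving such an exon out gives a much smaller protein.

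The exons described here are cassette exons longer than 300 nucleotides, that is, exons that some spliced RNAs of a gene carry and others leave out. They were found among the introns of 51819 clusters in 18 RNA-seq libraries of the human neuroblastoma line SHEP.tet21n. A cassette event was kept where the intron before the exon, the intron after it, the intron that jumps over it and the exon itself were all annotated in GENCODE, and where these 3 introns lay in 1 cluster. This gave 1049 events of 949 exons in 832 genes, out of 20401 events of 18375 exons of any length. The exons measured from 301 to 7113 nt with a median of 512 nt, and 223 of them were longer than 1000 nt. Of the 1049 events, 895 lay in protein-coding genes and 150 in long noncoding RNA genes.

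SHEP.tet21n cells carry a MYCN cDNA that doxycycline represses, so all groups share the same cells and the same transgene. Cells kept in DMSO expressed MYCN (MYCN+) and cells given 2 µg/mL doxycycline had it repressed (MYCN-). Each state was transfected with a control siRNA (SNRPD3+) or with 1 of 2 siRNAs against SNRPD3 (SNRPD3- #1 and SNRPD3- #2), which gave 6 groups of 3 libraries. Following the study, MYCN-/SNRPD3+ is called wildtype. Because doxycycline and repression of MYCN always came together, an effect of MYCN and an effect of doxycycline cannot be told apart. The table analysed here holds intron usage and no expression levels, so MYCN and SNRPD3 levels were not analysed here. The labels do not say whether replicates came from separate cultures, and the study describes its replicates as biologically independent.

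Each value in the table is a percent spliced in (PSI), the share of a cluster's spliced reads that use 1 intron. The skipping share of an exon was taken as the PSI of the intron that jumps over it, divided by the sum of that PSI and the mean PSI of the introns on either side, and is given in percent. A share near 0% means that the intron that jumps over the exon was hardly used beside the flanking introns. A share near 100% means the reverse, and exons are called kept or skipped by this share. Other RNAs can use the same flanking introns, for example those that remove an intron inside the exon. There the share does not measure how often the whole exon was kept. The number of reads behind a PSI is unknown, so no counting interval is given and the precision rests on the replicates. Between replicates of a group, log odds of the shares correlated across all tested events with r between 0.9 and 0.933, a description over events and not a test.

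The splice sites of 6 coding exons that carry the results below are shown first, because they mark where each long exon begins and ends. All 6 exons have lengths divisible by 3, so the reading frame is the same with and without them. For each exon the first line holds the last 40 intron bases and the first 10 exon bases with the intron's final AG in capitals. The second line holds the last 10 exon bases and the first 20 intron bases with the intron's first GT in capitals. Sequences are from hg38, 5′ to 3′ on the strand of the gene.

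KIAA1217 1599 nt exon, 3′ splice site, chr10:24542843-24542892, plus strand: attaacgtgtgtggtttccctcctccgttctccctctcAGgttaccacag
KIAA1217 1599 nt exon, 5′ splice site, chr10:24544472-24544501, plus strand: ttcacgtaagGTatcttggtctgctggaaa
MKI67 1080 nt exon, 3′ splice site, chr10:128115998-128116047, minus strand: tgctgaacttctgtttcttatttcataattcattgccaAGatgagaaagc
MKI67 1080 nt exon, 5′ splice site, chr10:128114908-128114937, minus strand: gattccattaGTaagtttatttaattgtaa
NASP 1017 nt exon, 3′ splice site, chr1:45607281-45607330, plus strand: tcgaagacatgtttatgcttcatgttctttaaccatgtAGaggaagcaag
NASP 1017 nt exon, 5′ splice site, chr1:45608328-45608357, plus strand: gagggtgaagGTaaccgggatatgcaagag
SVIL 930 nt exon, 3′ splice site, chr10:29533449-29533498, minus strand: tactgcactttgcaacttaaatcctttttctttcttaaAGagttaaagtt
SVIL 930 nt exon, 5′ splice site, chr10:29532509-29532538, minus strand: gacctgaactGTaggtgatgcttcacacgc
MAP4 3384 nt exon, 3′ splice site, chr3:47912412-47912461, minus strand: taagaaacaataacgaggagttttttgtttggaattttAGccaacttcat
MAP4 3384 nt exon, 5′ splice site, chr3:47909018-47909047, minus strand: aagtccgctgGTatgaacctgccatgggga
RTN4 2400 nt exon, 3′ splice site, chr2:55027476-55027525, minus strand: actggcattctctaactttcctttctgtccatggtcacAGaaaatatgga
RTN4 2400 nt exon, 5′ splice site, chr2:55025066-55025095, minus strand: aaaacttcagGTaatccaatctatatgcag

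The 3′ splice sites of these exons differed in how pyrimidine-rich they are. In the 20 bases before the AG, KIAA1217 had 19 C or T bases, whereas MKI67 and MAP4 had 13 each. Each site was also scored by how often its bases occur at annotated sites, as log2 odds against equal base frequencies summed over positions, where a higher score is closer to the typical site. The 3′ splice site score was 13.72 for KIAA1217 and 3.30 for MKI67. The 5′ splice site score was lowest for SVIL at 3.98 and highest for RTN4 at 7.89.

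Among all 949 long exons, the median 3′ splice site score was 9.78, with quartiles of 7.34 and 12.11. It was 8.97 in the 17426 cassette exons of 300 nt or less, with quartiles of 6.42 and 11.38. The median 5′ splice site score was 8.01 in long exons and 7.74 in the others. The GC content was almost equal, with medians of 48.8% and 48.7%. The flanking introns were of similar length, with medians of 2810 and 2567 nt around long exons and 2272 and 2186 nt around the others. These are descriptions of the annotation and were not tested.

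Long exons differed more in what they encode. Of the 949 exons, 292 (30.8%) were wholly coding, 173 (18.2%) partly coding and 72 (7.59%) lay in a UTR. The other 412 (43.4%) held no coding sequence in those transcripts of their gene that are annotated as protein-coding. Coding ranges of other transcript types were not counted, here and below. Among exons of 300 nt or less, 55.4% were coding and 26.7% held no coding sequence. Of the long exons, 223 (23.5%) held an annotated intron within their bounds, against 41 of 17426 (0.235%) of the others. These introns were matched by position, without regard to strand or gene. How many of these exons exist only where an intron within them is kept was not analysed here. The length was divisible by 3 in 152 of 292 coding long exons (52.1%), and also in 52.1% of the shorter coding exons. In long exons without coding sequence it was divisible by 3 in 31.1%.

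By this share, most long exons were kept more often than skipped. Over the 18 libraries, 425 of the 949 exons had a mean skipping share under 10%, 384 lay between 10 and 90%, and 140 were above 90%. The median was 14.03%, beside 22.3% over all cassette exons. Coding long exons had a median of 6.27% and coding exons of 300 nt or less one of 6.70%. Exons without coding sequence had a median of 37.4% in the long class and 86.8% in the shorter one. The long class holds more exons with annotated introns inside them (23.5% against 0.235%), whose flanking introns other RNAs can also use. How far this enters the difference was not tested.

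**Figure D1:**
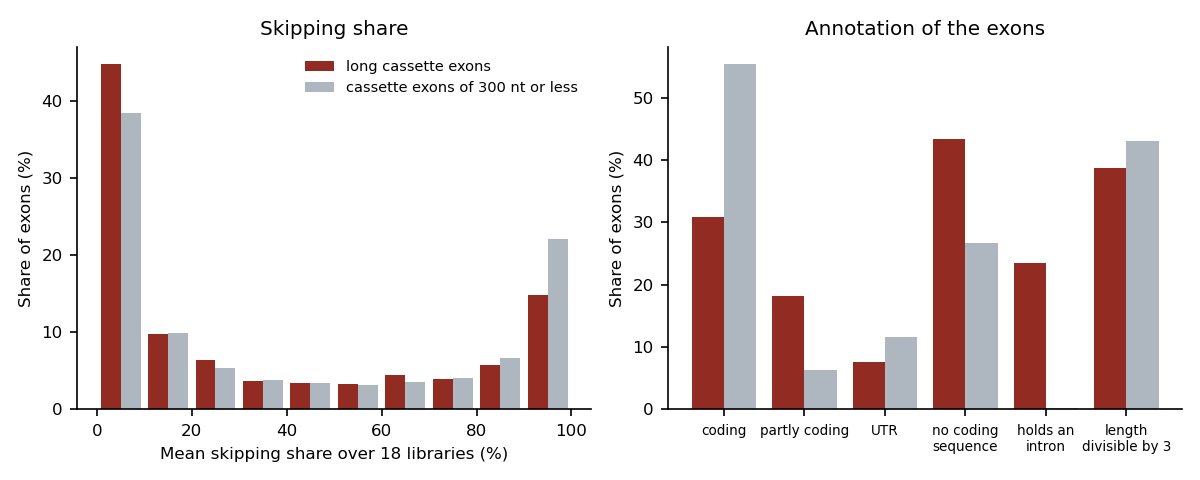
Share of exons (%, vertical axes) by mean skipping share over 18 libraries (left) and by annotation (right), for 949 long cassette exons (red) and 17426 cassette exons of 300 nt or less (grey). Long exons are less often wholly coding (30.8% against 55.4%), and 23.5% hold an annotated intron.

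In 365 of the 949 long exons (38.5%) the introns on either side differed in mean PSI by more than 20 percentage points, against 21.6% of all cassette exons. There the skipping share depends on how the flanking introns are combined, and results that were lost when the smaller flanking PSI replaced the mean are named as such below.

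The longest members were an exon of 7113 nt in the zinc finger gene ZNF195, without coding sequence and holding 5 annotated introns, an exon of 6255 nt in ANK2 and an exon of 5916 nt in SON. The giant ANK2 exon belongs to the neuronal form of ankyrin-B, and its mean skipping share was 97.9% ± 1.9 (SD, n = 3) in wildtype cells. SON, a splicing cofactor of nuclear speckles, kept its long exon almost always, with a mean skipping share of 0.732% ± 0.243 (SD, n = 3) in wildtype cells. The ZNF195 exon had a mean skipping share of 48.5% ± 6.89 (SD, n = 3) in the same libraries. Over all libraries its upstream intron had a mean PSI of 0.214%, its downstream intron 28.2% and its skipping intron 14.6%. This share therefore rests on the downstream intron, while the intron that leads into the exon was hardly used. At the length limit, exons of 301 nt in TRA2A, HSD11B1L and PEF1 had mean shares of 95.9%, 4.37% and 3.48%, and exons of 300 nt in RPUSD4, HEG1 and PLCB4 had 98.7%, 32.8% and 4.30%.

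For the tests, an event had to have a mean share between 1 and 99% and 18 different values. Of the 1049 events, 56 had a mean under 1% and 22 one over 99%, and 38 repeated a value between libraries, so that 933 events of 834 exons in 731 genes were tested. They were fitted together with all 17874 cassette events of any length that passed the same limits, with limma on the log2 odds of the share, and p-values were adjusted over all 17874 events. A called event had an adjusted p under 0.05.

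The mean skipping share over the 933 long events differed little between groups. It was 32.0% ± 0.383 in wildtype cells, 32.5% ± 0.549 in MYCN+/SNRPD3+ cells, 33.0% ± 0.480 and 32.4% ± 0.173 in MYCN- cells with SNRPD3 siRNA #1 and #2, and 33.5% ± 0.522 and 33.0% ± 0.342 in MYCN+ cells with the same siRNAs (SD, n = 3 each). Over all 17874 events the mean was 38.0% ± 0.253 in wildtype cells, and 40.8% ± 1.47 and 40.2% ± 0.944 in the MYCN+/SNRPD3- groups. In these groups replicate 3 of siRNA #1 and #2 stood apart over all events, at 42.5 and 41.2% beside 39.4 to 40.1% in the other 4 libraries, and over long events they had 34.1 and 33.4% beside 32.8 to 33.4%. The 3 wildtype libraries lay between 31.6 and 32.3% for long events and the 6 MYCN+/SNRPD3- libraries between 32.8 and 34.1%, so these groups did not overlap. The same held over all events, with wildtype libraries between 37.7 and 38.2% and MYCN+/SNRPD3- libraries between 39.4 and 42.5%. This separation was therefore not particular to long exons.

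The first comparison asked what MYCN did to these exons while SNRPD3 was intact. With MYCN+/SNRPD3+ against wildtype, limma called 0 of 933 long events, and 94 had an unadjusted p under 0.05. The percentage called among all events was 0.0336, with 0.0168 called higher and 0.0168 called lower, and 8.30% of all events had an unadjusted p under 0.05. The exons with the smallest p values were those of SPECC1L, KIAA1217 and ZHX1. SPECC1L encodes a protein of the actin and microtubule cytoskeleton, and the mean share of its 1514 nt exon was 7.31% ± 0.499 with MYCN+/SNRPD3+ and 1.10% ± 0.961 in wildtype cells (SD, n = 3 each, adjusted p = 0.168). Its upstream intron had a mean PSI of 4.09% and its downstream intron 93.6%. For ZHX1, a zinc finger and homeobox repressor, the mean share of the 2850 nt exon was 11.4% ± 3.15 and 4.85% ± 1.01 in the same groups (adjusted p = 0.207).

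Depletion of SNRPD3 in MYCN- cells also gave no called long event. With MYCN-/SNRPD3- against wildtype the count was 0 of 933 by limma, 67 had an unadjusted p under 0.05 (6.54% of all events did), and the percentage called among all events was 0.0. The smallest p values belonged to HEATR6, POT1-AS1 and RPGR. RPGR encodes a GTPase regulator of the photoreceptor cilium, and its 948 nt coding exon holds 2 annotated introns. Its share was 37.0, 30.2 and 39.7% in the wildtype libraries, 55.5, 51.3 and 55.5% with siRNA #1 and 55.7, 43.4 and 58.7% with siRNA #2. All 6 depleted libraries lay above the 3 wildtype libraries, with a difference of 17.7 percentage points and an adjusted p of 0.540.

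Depletion of SNRPD3 in MYCN+ cells gave 1 called long event of 933, and 107 had an unadjusted p under 0.05 (13.4% of all events did). The percentage called among all events was 0.0448. The event was 1 of several for a 381 nt coding exon of IRF3, the transcription factor that switches on interferon genes, at chr19:49661948-49662328, and it is named because it was the only one, after its values were seen. Its share was 0.0693, 1.73 and 1.56% in MYCN+/SNRPD3+ cells, 12.8, 6.85 and 16.7% with siRNA #1, and 5.92, 7.30 and 10.9% with siRNA #2. All 6 depleted libraries were above the controls, with a log2 odds difference of 2.56 ± 0.38 (SE) and an adjusted p of 0.0359. Its flanking introns had mean PSI values of 32.9% and 1.54%, and its skipping intron 0.944%. The event with the highest summed PSI for the same exon was not called in this comparison. That event had 5.25% ± 2.72 in MYCN+/SNRPD3+ cells, and 8.25% ± 2.29 and 6.80% ± 0.729 with siRNA #1 and #2 (SD, n = 3 each). The call of the first event was lost in 12 of 18 fits that left out 1 library, with adjusted p up to 0.114, and with the smaller flanking PSI.

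After the called IRF3 event, the long exons with the smallest p in this comparison were in POT1-AS1, KMT5B and TIAL1. TIAL1 encodes the RNA-binding protein TIAR, which itself acts on splice sites, and its 376 nt exon without coding sequence was mostly skipped. Its share was 89.6% ± 0.766 in MYCN+/SNRPD3+ cells and 94.8% ± 0.963 and 93.9% ± 0.764 with siRNA #1 and #2 (SD, n = 3 each, adjusted p = 0.0954). KMT5B, a histone H4 lysine methyltransferase, had shares of 1.95% ± 0.120 against 10.5% ± 4.77 and 5.52% ± 0.754 for a 731 nt exon (adjusted p = 0.0846). That exon has no coding sequence and holds 3 annotated introns. Its upstream intron had a mean PSI of 51.4%, its downstream intron 0.874% and its skipping intron 1.51%, so the low share rests on the upstream intron. The exon of POT1-AS1, an antisense RNA, had 99.7% ± 0.0366 against 81.1% ± 14.9 and 84.7% ± 9.94 (adjusted p = 0.0972).

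With depletion averaged over both MYCN states (SNRPD3- against SNRPD3+, 12 against 6 libraries), limma called 0 of 933 long events, 138 had an unadjusted p under 0.05 (15.6% of all events did), and the percentage called among all events was 0.0280. POT1-AS1, TIAL1 and FMO5 had the smallest p, with adjusted p values of 0.0677, 0.0771 and 0.0771. The TIAL1 exon had a mean share of 89.95% ± 0.991 over the 6 control libraries and 93.7% ± 1.31 over the 12 depleted libraries (SD). The difference between the depletion effects in MYCN+ and MYCN- cells was not called for any of the 933 events by limma, 46 had an unadjusted p under 0.05 (4.07% of all events did), and the percentage called among all events was 0.0. Taking the event that stands for each exon, the smallest p values were at exons of ENSG00000291079, SUPT7L and KMT5B.

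MYCN+/SNRPD3- against wildtype, which changes both factors at once, called 44 of 933 long events (4.72%). The percentage called among all events was 6.13, so long exons were not called more often than cassette exons in general. The 44 events were 42 exons of 39 genes, with skipping higher in 37 and lower in 7. Among all events, 5.73% were called with skipping higher and 0.397% with skipping lower, beside 3.97% and 0.750% of the long events. The median difference over the tested long events was 0.775 percentage points and over all events 1.37 percentage points, and 565 of the 933 long events (60.6%) had a higher mean share in MYCN+/SNRPD3- cells. The count rests on the spread shared by all 6 groups and on both siRNAs: it was 3 when only the libraries compared were fitted, 27 with siRNA #1 alone and 8 with siRNA #2 alone. It was 16, 10 and 12 without wildtype replicates 1, 2 and 3, 24 without MYCN+/SNRPD3- #1 replicate 3, and 28 and 19 without MYCN+/SNRPD3- #2 replicates 1 and 3.

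KIAA1217 had the smallest p of the long exons in this comparison. It encodes SKT, a protein named for its role in the developing spine, and its 1599 nt coding exon lies at chr10:24542883-24544481. The skipping share was 7.49, 11.7 and 8.87% in the wildtype libraries. It was 43.1, 42.9 and 52.4% in MYCN+ cells with siRNA #1 and 43.7, 28.9 and 45.8% with siRNA #2. Every MYCN+/SNRPD3- library was above every wildtype library, and the means were 42.8% ± 7.68 (SD, n = 6) and 9.36% ± 2.15 (SD, n = 3). The log2 odds difference was 2.74 ± 0.36 (SE) with an adjusted p of 0.00341, and the call was made in all 18 fits without 1 library, where adjusted p ran up to 0.0218. In the other groups the share was 31.7% ± 12.997 in MYCN+/SNRPD3+ cells, and 18.9% ± 5.20 and 19.5% ± 3.49 in MYCN- cells with siRNA #1 and #2 (SD, n = 3 each), which lie between the other means.

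ASPM, which organises the poles of the mitotic spindle, has a 4755 nt coding exon that holds most of its calmodulin-binding IQ repeats. Its share was 19.9, 27.5 and 23.4% in the wildtype libraries and 25.1, 24.9 and 30.5% in MYCN+/SNRPD3+ cells. It was 31.8, 28.7 and 40.2% with siRNA #1 and 34.9, 31.0 and 41.8% with siRNA #2 in MYCN- cells. It was 36.0, 37.2 and 57.4% with siRNA #1 and 39.1, 38.6 and 52.7% with siRNA #2 in MYCN+ cells. The MYCN+/SNRPD3- libraries were all above the wildtype and the MYCN+/SNRPD3+ libraries, and in MYCN- cells too every depleted library was above every wildtype library. Skipping rose by 19.9 percentage points against wildtype, a log2 odds difference of 1.29 ± 0.31 (SE) with an adjusted p of 0.0275. Against MYCN+/SNRPD3+ the adjusted p was 0.191, and over all depleted libraries it was 0.0919. The intron before the exon had a mean PSI of 16.4% and the one after it 60.6%, and with the smaller flanking PSI the call was lost. It was also lost without wildtype replicates 1, 2 or 3 (adjusted p of 0.104, 0.0633 and 0.0875) and without MYCN+/SNRPD3- #2 replicate 3 (0.0574).

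**Figure D2:**
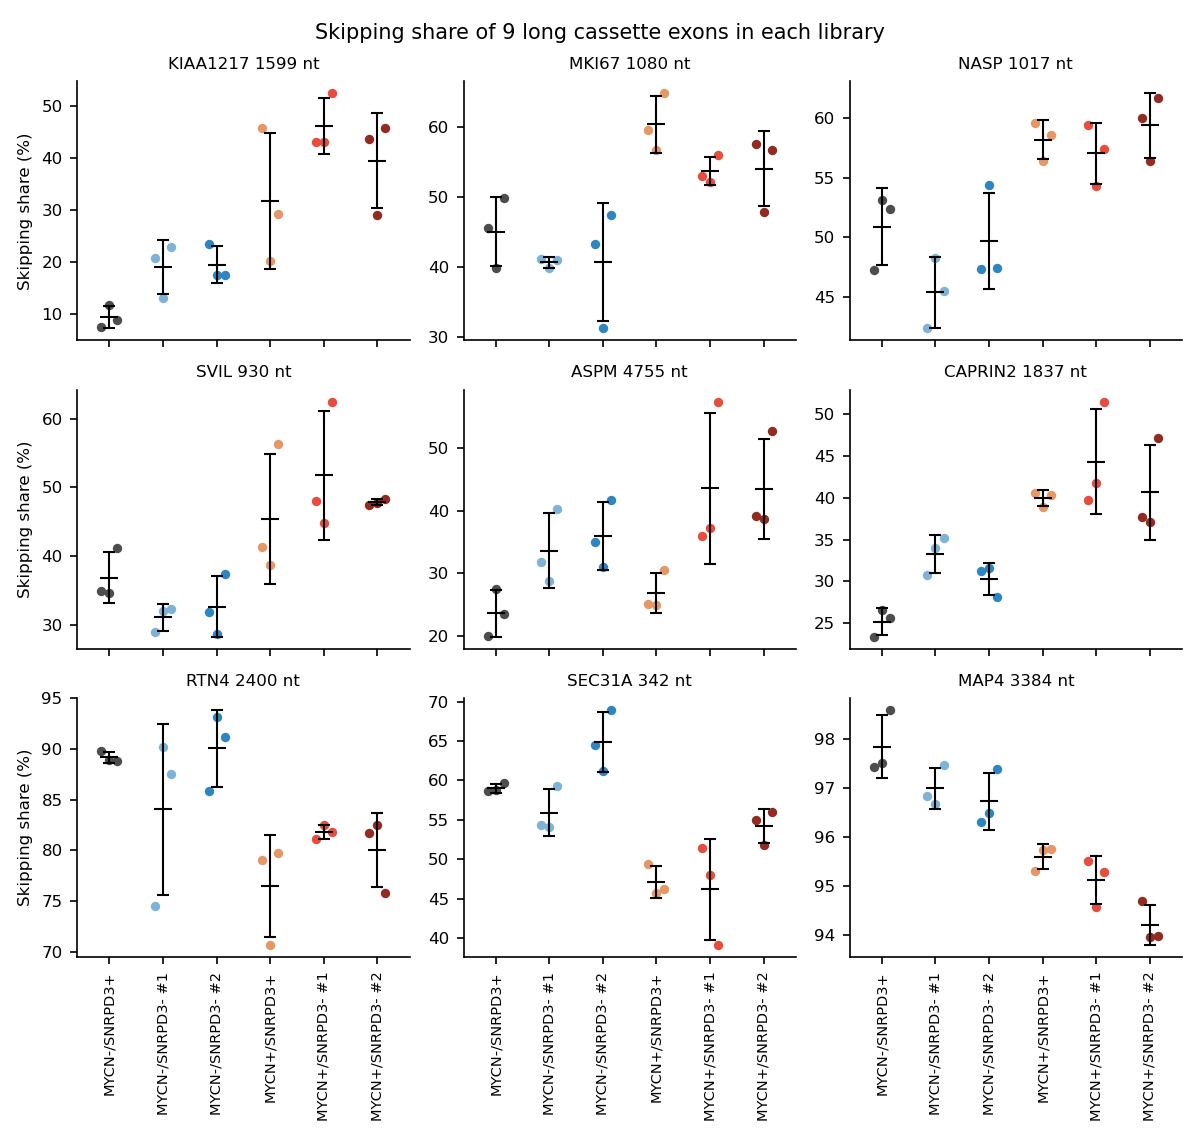
Skipping share (%, vertical axes, not starting at 0) of 9 long cassette exons in the 6 groups. Points are libraries, the horizontal bar is the mean and the error bar the SD of 3 libraries. KIAA1217 rises from 9.36% in wildtype cells to 46.2% and 39.5% in the MYCN+/SNRPD3- groups, and MAP4 falls from 97.8% to 95.1% and 94.2%.

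The largest difference among called exons was in an exon without coding sequence. SLC25A29, a mitochondrial carrier of basic amino acids, had 67.6, 43.99 and 30.1% in wildtype libraries for a 368 nt exon that holds an annotated intron. The MYCN+/SNRPD3- libraries had 72.2, 72.6 and 76.0% with siRNA #1 and 97.6, 92.2 and 78.5% with siRNA #2. They did not overlap the wildtype libraries, and the adjusted p was 0.0256. DMPK, the kinase gene of myotonic dystrophy, had 55.7% ± 16.9 (SD, n = 6) in MYCN+/SNRPD3- against 24.3% ± 3.91 (SD, n = 3) in wildtype cells for a 426 nt exon (adjusted p = 0.0395). Both calls were lost with the smaller flanking PSI. The call for SLC25A29 was lost without wildtype replicate 2 or 3 (adjusted p of 0.0901 and 0.115) and without MYCN+/SNRPD3- #1 replicate 3, and that for DMPK in 10 of 18 fits, with adjusted p up to 0.130.

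RASGRP1 activates Ras in response to diacylglycerol, and its 386 nt coding exon had shares of 0.290, 0.272 and 0.453% in wildtype cells. MYCN+/SNRPD3- libraries had 25.6, 30.3 and 0.530% with siRNA #1 and 29.5, 36.2 and 17.1% with siRNA #2, so that 1 library stayed at the wildtype level and 5 were far above it (adjusted p = 0.0283). The call was lost without wildtype replicates 1, 2 or 3, with adjusted p of 0.0829, 0.0911 and 0.0849, and with the smaller flanking PSI. FMO5 encodes a flavin monooxygenase, and skipping of its 353 nt coding exon fell. The shares were 31.8, 25.2 and 21.9% in wildtype libraries and between 0.220 and 1.63% in the 6 MYCN+/SNRPD3- libraries, with an adjusted p of 0.00638. In MYCN- cells the siRNAs gave different values, 20.1, 22.2 and 35.8% with siRNA #1 and 0.444, 0.576 and 0.763% with siRNA #2. The FMO5 call was lost with the smaller flanking PSI, and the flanking introns had mean PSI values of 24.8% and 56.7%.

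Some exons described above for a single factor were called here, where both factors changed. RPGR rose by 21.7 percentage points (adjusted p = 0.0191), a call lost without wildtype replicates 1, 2 or 3 (0.0588, 0.0857 and 0.0505), with siRNA #2 alone and for the PSI of the skipping intron. TIAL1 rose by 4.13 percentage points (adjusted p = 0.0247), a call lost in 4 of 18 fits without 1 library, with adjusted p up to 0.0920, with siRNA #2 alone and with the smaller flanking PSI. SPECC1L rose from 1.10% ± 0.961 (SD, n = 3) to 4.96% ± 1.87 (SD, n = 6) with an adjusted p of 0.0285, a call lost in 6 of 18 fits with adjusted p up to 0.125 and with either siRNA alone. The IRF3 event called after depletion in MYCN+ cells was 7.98 percentage points higher than in wildtype (adjusted p = 0.0162), a call lost in 2 of 18 fits with adjusted p up to 0.0633 and with siRNA #2 alone, and its direction turned with the smaller flanking PSI.

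Of the 7 called events whose skipping fell, 5 fell by at least 10 percentage points. One of them was a 696 nt exon without coding sequence in CLIP4, a CAP-Gly domain protein of the microtubule linker family. It had 85.4, 89.1 and 89.3% in wildtype libraries, 74.1, 68.5 and 49.3% in MYCN+ cells with siRNA #1, and 77.5, 80.5 and 44.8% with siRNA #2 (adjusted p = 0.0362). The groups did not overlap, and replicate 3 of each siRNA was the lowest. The call was lost without wildtype replicates 1, 2 or 3 (adjusted p of 0.0772, 0.120 and 0.118) or without MYCN+/SNRPD3- #1 replicate 3 (0.0695).

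Among the genes of the cytoskeleton and adhesion list, 2 of 12 tested events were called and both fell, where 6.13% of all events were called and 0.397% called lower. MAP4, which binds microtubules outside neurons, has a 3384 nt coding exon at chr3:47909038-47912421 that was almost always skipped. Its share was 97.4, 97.5 and 98.6% in wildtype libraries, 95.5, 94.6 and 95.3% in MYCN+ cells with siRNA #1 and 94.7, 93.9 and 94.0% with siRNA #2. All 6 were below all 3 wildtype libraries, with a log2 odds difference of -1.07 ± 0.17 (SE) and an adjusted p of 0.00709. Skipping fell by 3.19 percentage points, from 97.8% ± 0.645 (SD, n = 3) to 94.7% ± 0.646 (SD, n = 6). The call was made in all 18 fits without 1 library and was lost with the smaller flanking PSI.

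PLEC, which links intermediate filaments to other cell structures, has a 3381 nt coding exon that encodes its rod. Its share was 21.9% ± 2.44 (SD, n = 3) in wildtype cells and 8.09% ± 5.17 and 12.6% ± 5.34 (SD, n = 3 each) in MYCN+ cells with siRNA #1 and #2. The adjusted p was 0.0426, and the call was lost in 14 of 18 fits without 1 library, with adjusted p up to 0.147. The other measured members of this list were not called. Exons of DST, a spectrin-family linker, were mostly kept, with mean shares of 0.527% ± 0.488 for the 327 nt exon and 9.75% ± 16.1 for the 2730 nt exon in wildtype cells (SD, n = 3 each). The wildtype value of the longer DST exon rests on 1 library at 28.4% beside 2 at 0.361% and 0.494%.

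Exons that hold annotated introns made up 16 of the 44 events, and skipping rose in all 16. They were 16 of 233 tested events of this kind (6.87%), beside the 6.13% of all events. RNAs that remove an intron inside such an exon can use the same flanking introns, so these shares are not those of the whole exon alone. The 1837 nt exon of CAPRIN2, an RNA-binding protein, holds 3 annotated introns and lay at 23.4, 26.5 and 25.7% in wildtype libraries. MYCN+/SNRPD3- libraries had 39.7, 41.8 and 51.5% with siRNA #1 and 37.7, 37.1 and 47.2% with siRNA #2, all above wildtype, with an adjusted p of 0.00948 and calls in all 18 fits without 1 library but not with siRNA #2 alone. The 3446 nt exon of INO80E, a subunit of the INO80 chromatin remodeller, rose from 69.3% ± 8.47 (SD, n = 3) to 86.9% ± 3.07 (SD, n = 6) with an adjusted p of 0.0131. The introns before and after it had mean PSI values of 7.07% and 0.347%. A 319 nt exon of INO80E has the same upstream and skipping introns. The exons of DENND5A and HEATR6 rose from 3.64% ± 0.919 to 12.8% ± 4.45 and from 4.34% ± 3.05 to 14.4% ± 2.17 (adjusted p of 0.00983 and 0.00783). CAPRIN2, INO80E and DENND5A were chosen after their values were seen. The INO80E call was lost without wildtype replicate 2 or 3 (adjusted p of 0.0541 and 0.0622), and INO80E and HEATR6 also with the smaller flanking PSI.

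Genes of RNA processing had 17 tested long events, of which 2 were called and both rose, where 5.73% of all events were called higher. PRPF39, a U1 snRNP-associated factor, had shares of 63.6, 72.8 and 72.9% in wildtype libraries for a 335 nt exon that holds an annotated intron. It had 84.1, 77.9 and 89.2% with siRNA #1 and 85.7, 84.7 and 91.7% with siRNA #2 in MYCN+ cells (adjusted p = 0.0222), with no overlap. ACIN1, a component of the exon junction complex, had 89.9% ± 1.78 (SD, n = 3) and 94.6% ± 1.19 (SD, n = 6) for a 1358 nt exon (adjusted p = 0.0460). The PRPF39 call was lost without wildtype replicates 1, 2 or 3 (adjusted p of 0.0920, 0.0618 and 0.0606), that of ACIN1 in 14 of 18 fits with adjusted p up to 0.175, and both with the smaller flanking PSI.

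Some exons without coding sequence belong to RNA-binding protein genes that are known to limit their own levels through such exons, and these were mostly skipped in every group. The 456 nt exon of SRSF3 had a mean share of 97.99% ± 0.257 in wildtype cells and 98.5% ± 0.167 and 98.6% ± 0.161 in MYCN+ cells with siRNA #1 and #2 (SD, n = 3 each). The 449 nt exon of SRSF7 had 94.6% ± 0.309, 94.3% ± 1.18 and 94.2% ± 0.563 in the same groups. Neither was called in any of the 7 comparisons. The 312 nt exon of TRA2A, a splicing activator, had 95.02% ± 0.801 in MYCN+ and 92.9% ± 1.12 in MYCN- libraries (SD, n = 9 each) and was called in that comparison (adjusted p = 0.0498), a call lost in 16 of 18 fits without 1 library, with adjusted p up to 0.0982. SNRNP70 encodes the 70K protein of the U1 snRNP, and it and TRA2A were named after their values were seen. The 1474 nt exon of SNRNP70 rose from 97.99% ± 0.324 (SD, n = 3) to 99.4% ± 0.148 (SD, n = 6), with an adjusted p of 0.0314. This call was lost without wildtype replicates 1, 2 or 3 (adjusted p of 0.0851, 0.121 and 0.0802) and without MYCN+/SNRPD3- replicate 3 of siRNA #1 or #2 (0.0603 and 0.0633).

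Of the other lists, cell division and centrosome had 1 of 19 tested events called, ASPM, which rose. Zinc finger genes had 1 of 41, the UTR exon of ZNF136 (95.8% ± 1.41 to 99.5% ± 0.972, adjusted p = 0.0347), a call lost in 8 of 18 fits without 1 library, with adjusted p up to 0.126, and whose direction turned for the PSI of the skipping intron. DNA damage had 0 of 13 and chromatin 0 of 22. The median difference was 0.627 percentage points for cell division, 1.72 for zinc finger, 0.665 for DNA damage, 1.34 for chromatin, 1.43 for RNA processing and -0.0846 for cytoskeleton and adhesion, beside 1.37 over all events. NIN, a protein of the mother centriole, has a 2139 nt coding exon that was mostly kept, with 6.33% ± 3.26 in wildtype cells and 8.81% ± 1.56 and 6.05% ± 3.04 in the MYCN+/SNRPD3- groups (SD, n = 3 each), and it was not called in any comparison.

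**Figure D3:**
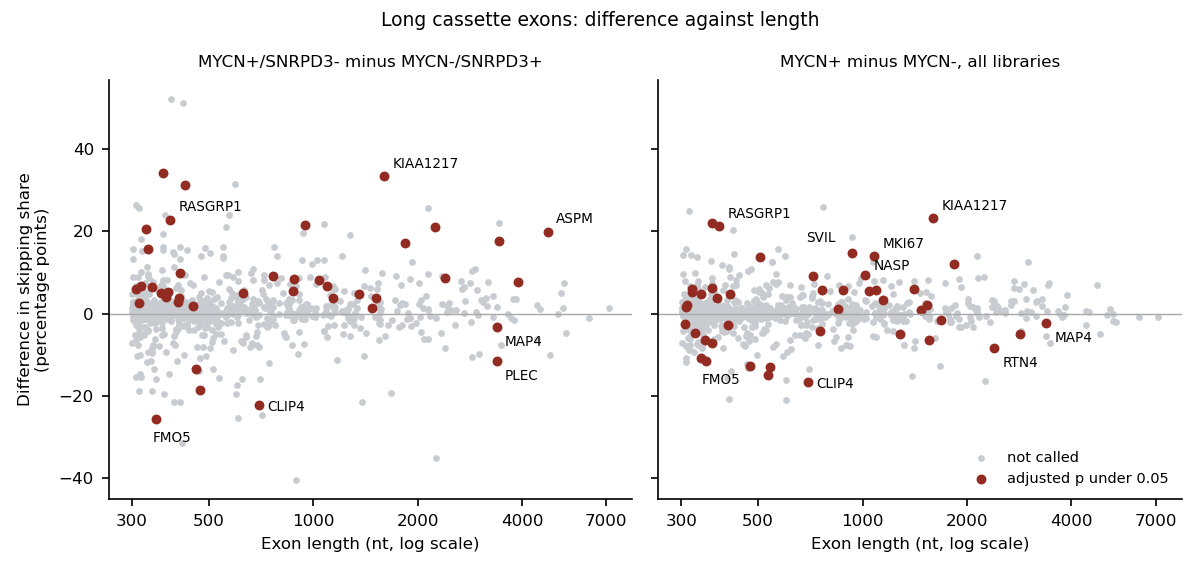
Difference in mean skipping share (percentage points, vertical axis) against exon length (nt, log scale) for the tested long cassette exons, 1 event per exon, in MYCN+/SNRPD3- minus wildtype (left) and MYCN+ minus MYCN- over all libraries (right). Red points have an adjusted p under 0.05, at lengths up to 4755 nt; KIAA1217 has differences of 33.4 and 23.2 percentage points.

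MYCN+ against MYCN- over all 18 libraries, which averages the control and both SNRPD3 siRNAs, called 47 of 933 long events (5.04%), close to the percentage called among all events, 5.25. The 47 events were 47 exons of 44 genes. Skipping was higher in 28 and lower in 19, beside 4.34% called higher and 0.918% called lower among all events, and 3.00% and 2.04% of the long events. Wholly coding exons made up 23 of the 47, and 15 of these had a length divisible by 3. In the 143 tested coding events with such a length the share called was 10.5%, and over all 278 tested coding events it was 8.27%. This comparison shares libraries with the preceding ones, so its calls are not independent of theirs. With siRNA #1 or #2 alone, each averaged with the control siRNA, the count was 9 and 11, in place of the average over all groups. It was 27 without MYCN-/SNRPD3- #1 replicate 2 and 31 and 30 without replicate 3 of MYCN+/SNRPD3- #1 and #2.

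MKI67 encodes Ki-67, the proliferation marker that coats mitotic chromosomes, and its 1080 nt coding exon at chr10:128114928-128116007 separates the long and the short form of the protein. The skipping share was 45.5, 39.8 and 49.8% in wildtype libraries and 59.7, 56.7 and 64.9% in MYCN+/SNRPD3+ libraries, which did not overlap. With siRNA #1 it was 41.2, 39.8 and 41.0% in MYCN- and 53.0, 52.2 and 56.0% in MYCN+ cells. With siRNA #2 it was 43.3, 31.2 and 47.5% in MYCN- and 57.7, 47.9 and 56.7% in MYCN+ cells. In each siRNA group all MYCN+ libraries were above all MYCN- libraries. The means were 56.1% ± 4.81 and 42.1% ± 5.39 (SD, n = 9 each). Over all libraries the skipping intron had a mean PSI of 33.0%, the upstream intron 27.4% and the downstream intron 39.6%. Which form was the major one therefore depends on how the flanking introns are combined. The log2 odds difference was 0.80 ± 0.15 (SE) with an adjusted p of 0.0105, and all 18 fits without 1 library called it. For MYCN+/SNRPD3+ against wildtype alone the adjusted p was 0.356, and averaged over the control siRNA and siRNA #1 it was 0.0532.

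NASP, a histone chaperone that the RNA processing list holds, has a 1017 nt coding exon at chr1:45607321-45608337, which marks the longer, testis-type form of the protein. Its share was 47.3, 53.1 and 52.4% in wildtype and 59.6, 56.4 and 58.6% in MYCN+/SNRPD3+ libraries. It was 42.4, 48.3 and 45.5% with siRNA #1 and 47.4, 54.4 and 47.5% with siRNA #2 in MYCN- cells. In MYCN+ cells it was 59.4, 54.3 and 57.4% with siRNA #1 and 60.0, 56.4 and 61.7% with siRNA #2. Within each siRNA the groups did not overlap, and pooled over siRNAs the lowest MYCN+ library, 54.3%, lay just below the highest MYCN- library, 54.4%. Skipping rose from 48.7% ± 3.88 to 58.2% ± 2.27 (SD, n = 9 each), with a log2 odds difference of 0.54 ± 0.11 (SE), an adjusted p of 0.0138 and calls in all 18 fits without 1 library. With siRNA #1 or #2 alone, each averaged with the control siRNA, the adjusted p was 0.0709 and 0.104.

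KIAA1217 rose in this comparison too, from 15.9% ± 5.94 to 39.1% ± 10.5 (SD, n = 9 each, adjusted p = 0.00183), and its call was made under all alternatives tried. SVIL encodes supervillin, which ties the actin cortex to the membrane, and its 930 nt coding exon lies at chr10:29532529-29533458. Its share was 28.7% at the lowest, 32.3% at the median and 41.1% at the highest in the 9 MYCN- libraries, and 38.7, 47.7 and 62.5% in the 9 MYCN+ libraries. The ranges overlapped, and the log2 odds difference was 0.88 ± 0.17 (SE) with an adjusted p of 0.0126. With siRNA #1 or #2 alone, each averaged with the control siRNA, the adjusted p was 0.0662 and 0.129. It was also over the threshold for the PSI of the skipping intron. CAPRIN2 rose from 29.6% ± 3.94 to 41.6% ± 4.71 (SD, n = 9 each) with no overlap between the states (adjusted p = 0.00566).

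RASGRP1 had a median share of 0.442% in MYCN- libraries, where 8 of 9 were under 1% and 1 was at 11.9%, and of 25.6% in MYCN+ libraries, where 1 was at 0.530%. The adjusted p was 0.00662, all 18 fits without 1 library called it, and with siRNA #1 alone the call was lost. SLC25A29 was also called (22.1 percentage points higher, adjusted p = 0.0276), but not without MYCN-/SNRPD3- #2 replicate 2 (0.0591) or any of 6 other libraries. The called events with the largest and the fifth largest difference, in LINC00667 (-25.2 percentage points) and CLN6 (18.9 percentage points), were not the events that stand for their exons, whose own shares were not called in this comparison.

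Other coding exons whose skipping rose were chosen for mention after their values were seen. NDUFV3, a subunit of mitochondrial complex I, has a 1095 nt exon that marks its long form, and the share rose from 74.2% ± 1.12 to 79.9% ± 1.45 (SD, n = 9 each) with no overlap (adjusted p = 0.0140). The 722 nt exon of LRR1, the substrate receptor of the ligase that unloads the replicative helicase, rose from 61.5% ± 3.07 to 70.6% ± 3.10 (adjusted p = 0.0200). The 1041 nt exon of USP10, a deubiquitinase of p53, rose from 6.51% ± 1.46 to 11.9% ± 3.11 (adjusted p = 0.00506). All 18 fits without 1 library called these 3 exons. NDUFV3 and LRR1 were lost with either siRNA alone, NDUFV3 with the smaller flanking PSI and USP10 with siRNA #2 alone. With the smaller flanking PSI the direction for USP10 turned, and the introns around the USP10 exon had mean PSI values of 1.41% and 35.7%.

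Exons that were kept more often in MYCN+ cells included a large exon of RTN4, MAP4 again, and SEC31A. RTN4 encodes the reticulons of the endoplasmic reticulum, and its 2400 nt coding exon at chr2:55025086-55027485 is part of the longest form, Nogo-A. Its share was 89.8, 88.9 and 88.9% in wildtype and 79.1, 70.6 and 79.7% in MYCN+/SNRPD3+ libraries. Over all siRNAs it was 74.5% at the lowest, 88.9% at the median and 93.2% at the highest in MYCN-, and 70.6, 81.1 and 82.5% in MYCN+ libraries. The ranges overlapped through 1 MYCN- library with siRNA #1, and skipping fell by 8.33 percentage points (adjusted p = 0.0276). The call was lost without MYCN+/SNRPD3+ replicate 2 (adjusted p = 0.0549), MYCN+/SNRPD3- #2 replicate 3 (0.0566) or replicate 2 of MYCN-/SNRPD3- #1 or #2 (0.0547 and 0.0575), and with the smaller flanking PSI. The flanking introns of this exon had mean PSI values of 0.397% and 1.81%.

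MAP4 fell from 97.2% ± 0.700 to 94.97% ± 0.705 (SD, n = 9 each) with no overlap between the states and an adjusted p of 0.00442, and the call was lost with the smaller flanking PSI. SEC31A, a coat protein of vesicles leaving the endoplasmic reticulum, has a 342 nt coding exon at chr4:82842140-82842481 whose share fell from 59.9% ± 4.64 to 49.2% ± 5.19 (adjusted p = 0.0120). In wildtype libraries it was 58.6, 58.8 and 59.7% and in MYCN+/SNRPD3+ libraries 49.4, 45.7 and 46.2%, which did not overlap. With siRNA #1 or #2 alone, each averaged with the control siRNA, the adjusted p was 0.0612 and 0.0503. RBM6, an RNA-binding protein, fell from 12.9% ± 2.96 to 7.86% ± 1.43 for a 1279 nt exon (adjusted p = 0.0216), and an overlapping RBM6 exon of 1551 nt, which ends at the same base, was called too. RTN4 and SEC31A were chosen after their values were seen.

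ZHX1 fell from 12.8% ± 2.70 to 7.89% ± 3.05 (SD, n = 9 each, adjusted p = 0.0128), and PREPL, a serine hydrolase, from 61.2% ± 6.76 to 48.3% ± 6.65 for a 542 nt exon (adjusted p = 0.0183, a call lost with the smaller flanking PSI and with siRNA #1 alone). CLIP4 was 16.7 percentage points and the 535 nt exon of SETD5, a chromatin regulator, 14.8 percentage points lower in MYCN+ cells, with adjusted p values of 0.0240 and 0.0429. The SETD5 call was lost in 14 of 18 fits without 1 library, with adjusted p up to 0.0863, and that of CLIP4 without replicate 2 of MYCN-/SNRPD3- #1 or #2 (0.0528 and 0.0517).

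By list, cell division and centrosome had MKI67 called higher and CEP164 lower among 19 tested events, RNA processing had NASP higher and 2 events of RBM6 lower among 17, and cytoskeleton and adhesion had MAP4 lower among 12. Among all events 4.34% were called higher and 0.918% lower. Zinc finger genes had ZNF365 and ZNF680 lower among 41, chromatin had SETD5 lower among 22, and DNA damage had ERCC8 higher among 13. The 1686 nt exon of CEP164, a centriole appendage protein, fell from 99.1% ± 0.564 to 97.6% ± 0.949 (SD, n = 9 each), and this call was lost in 16 of 18 fits without 1 library, with adjusted p up to 0.0988. For the PSI of the skipping intron the CEP164 direction turned. The calls for ERCC8, ZNF365 and ZNF680 were lost in 16, 13 and 15 of these fits.

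By length, the median difference in MYCN+/SNRPD3- against wildtype was 1.57 percentage points for exons of up to 50 nt and 1.06 for 151 to 300 nt. It was 0.654 for 301 to 500 nt, 0.705 for 501 to 1000 nt and 1.17 for more than 1000 nt. Of the 219 tested events over 1000 nt, 16 were called (7.31%), with skipping higher in 13, and of the 261 events of 501 to 1000 nt, 7 were called (2.68%). Whether these classes differ beyond the spread between libraries was not tested.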

How the data were processed

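RNA from 18 libraries of SHEP.tet21n cells was sequenced after poly-A selection. Per the labels and the study's methods, the authors aligned reads with STAR 2.5.0a to hg38 (SAMtools 1.3.1 is also named) and ran leafcutter. The deposited values are the fraction of each intron in its cluster (PSI), and none is exactly 0 or 1. The deposited file has no read counts, so depth is unknown. A second table holds the authors' own comparisons (delta PSI and false discovery rates) and was not used.

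Introns were matched to GENCODE 44, while the study used release 28. Log2 odds of the skipping share, with 0.01 added to the share and its complement, were fitted over 6 groups with limma 3.58.1 (R 4.3.3) and Benjamini-Hochberg adjustment over all 17874 cassette events. The script was tested on simulated data. Replicate numbers were not used to pair the samples: deviations of same-numbered libraries correlated by 0.014 on average and by at most 0.0873. Within a MYCN state all 18 such pairs were positive, with a mean of 0.0425 and a lowest value of 0.00128. Between the states the mean was -0.00509. Whether same-numbered libraries share a batch was not tested. Alternatives are given at the end.

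An exon was called coding, partly coding or UTR from the coding ranges of protein-coding transcripts of its gene that hold it. Exons held only by other transcript types counted as without coding sequence. Where an exon had several events, that with the highest summed PSI stood for it. Named were, per comparison, up to 6 called exons with the largest differences (1 per gene) or the 3 smallest p values, 16 listed genes where measured, and the 3 longest exons; others are marked as chosen later. The members, gene lists and named genes were chosen with earlier results of these data known. The splice-site sequences of 1 exon are not reported here.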

Additional observations from a re-analysis of the deposited data

How the results depend on the processing

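Counts of called long events moved with the definition of the share, the libraries fitted and the threshold. For MYCN+/SNRPD3- against wildtype (44 called) the count was 12 with the smaller flanking PSI, 10 for the PSI of the skipping intron, 3 with only the groups compared, 7 at an adjusted p under 0.01, 27 and 8 with siRNA #1 or #2 alone, and from 10 to 49 when 1 library was left out. For MYCN+ against MYCN- over all libraries (47 called) it was 19, 21, 5 at an adjusted p under 0.01 and 31 with a minimum difference of 5 percentage points. It was 9 and 11 with siRNA #1 or #2 alone, each averaged with the control siRNA. It was 30 for exons over 400 nt, and from 27 to 55 when 1 library was left out. For depletion in MYCN+ cells (1 called) it was 0 with offsets of 0.001 or 0.05, without transformation, with mean shares of 0.05 to 0.95, with 1 event per exon, for the PSI of the skipping intron, with only the groups compared, at an adjusted p under 0.01, with either siRNA alone and over 400 nt, and from 0 to 5 when 1 library was left out. For depletion over all libraries (0 called) it was 1 with offset 0.001, without transformation and for the PSI of the skipping intron, and from 0 to 2 when 1 library was left out. For MYCN+/SNRPD3+ against wildtype (0 called) it was 2 with only the groups compared and from 0 to 2 when 1 library was left out, for the difference of the depletion effects from 0 to 1, and for depletion in MYCN- cells 0 throughout.

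With the replicate number as a replicate block the counts were 60 for MYCN+/SNRPD3- against wildtype, 65 for MYCN+ against MYCN-, 4 for depletion in MYCN+ cells and 8 for depletion over all libraries, and with the replicate block within MYCN status they were 70, 62, 4 and 5. Same-numbered libraries were only weakly correlated across events, and these fits are given as alternatives. Replicate 3 had the highest mean share over all events in each MYCN+ group, at 38.9% with the control siRNA and 42.5 and 41.2% with siRNA #1 and #2. Among the MYCN- groups this was so only with siRNA #2. A shared replicate effect was not tested.

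The mean share over long exons was 1.28 percentage points higher in MYCN+/SNRPD3- than in wildtype cells, 1.83 with the smaller flanking PSI and from 1.06 to 1.43 when 1 library was left out. Among 2157 repeats of called differences of named exons, 1552 kept direction and call, 600 kept direction only and 5 turned: with the smaller flanking PSI the log2 odds difference was 1.38 for FMO5 and -0.14 for USP10 (MYCN+ against MYCN-) and -0.04 for the other IRF3 event (MYCN+/SNRPD3- against wildtype), and for the PSI of the skipping intron 0.16 for CEP164 (MYCN+ against MYCN-) and -0.05 for ZNF136 (MYCN+/SNRPD3- against wildtype). The causes were not tested. Read depth is unknown, so how far it limits shares near 0 or 100% was not analysed here.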
